A study of Mus musculus with 6 samples.

Results

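The 44 genes described here encode the machinery that copies DNA and the regulators that commit a cell to doing so. They were taken by symbol and protein-coding biotype from the 55487 genes of the deposited count table, and all 44 were present and had enough counts to be tested. By role they fall into 15 genes of origin licensing, 6 of helicase activation and origin firing, 15 of the replicative polymerases with their clamp and clamp loader, 4 of deoxynucleotide synthesis and 4 G1/S regulators. RNA had been sequenced from αTC1, a mouse cell line derived from a glucagonoma and used as a model of the pancreatic α cell. Of the 6 libraries, 3 came from cells given G786-1089, described by the series as a small-molecule inhibitor of SMNDC1, and 3 from cells given DMSO, the solvent. SMNDC1 is a Tudor domain protein of the spliceosome. The headers of the count table mark all 6 libraries WT, the unmodified line, so both groups shared this 1 line and genotype. No other agent entered the comparison, and the labels give neither the dose nor the length of treatment.

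Before a genome can be copied, its origins have to be licensed. The origin recognition complex (ORC) together with CDC6 and CDT1 loads the ring-shaped MCM2-7 helicase onto DNA, and geminin blocks CDT1 once licensing has to stop. At the start of S phase, kinases recruit CDC45 and the GINS complex to MCM2-7, which turns the ring into an active helicase. Primase with polymerase α lays down the starts of the new strands, the RFC complex loads the sliding clamp PCNA, and polymerases δ and ε extend the strands from deoxynucleotides supplied by ribonucleotide reductase and its partner enzymes. E2F transcription factors and cyclin E with CDK2 govern entry into S phase, and many genes of the machinery carry E2F sites in their promoters.

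The replication genes did not move as a block. With the inhibitor, 9 of them rose and 4 fell at an adjusted p under 0.05 (quasi-likelihood test of edgeR, Benjamini-Hochberg adjusted over the 15082 genes tested), and 31 did not pass. With libraries scaled on their totals alone, which moved the median log2 fold change of all tested genes from 0.04 to 0.25, 19 were called higher and 2 lower. With the letters in the column names as a replicate block, 5 were called higher and 3 lower, and Orc3, Mcm5, Gins3, Pola2 and Prim2 no longer passed. Among the genes called, the largest differences were higher levels of the licensing factors Cdc6 and Cdt1 and a lower level of Rrm2, the regulated subunit of ribonucleotide reductase. Over all tested genes, 6.98% were called higher, 7.8% lower and 14.8% in either direction. The calls thus took 20.5% of the replication genes upward and 9.09% downward. Most replication genes are well expressed, and calls were more frequent among such genes. Among the 2033 tested genes whose average log2 CPM lay between 6.06 and 8.0, the quartiles of the replication genes, 13.2% were called higher, 19.3% lower and 32.5% in either direction. This narrower background was chosen after the values had been seen. Against it the upward share was larger and the downward share smaller, and the share called in either direction was close to it.

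The median log2 fold change over the 44 genes was 0.18, beside 0.04 over all tested genes, and 34 of the 44 lay above 0. The inhibitor and DMSO libraries did not overlap for 24 of them, 19 higher and 5 lower. Over all tested genes, 18.2% were without overlap and higher and 18.5% without overlap and lower, and among genes of like level 22.8% and 32.6%. At the filter that the methods of the study state, an adjusted p no higher than 0.1 and a log2 fold change of 1 or more in size, only Cdc6 and Cdt1 of the 44 remained, where 10.4% of all tested genes passed. By role, 4 of 15 licensing genes rose and 1 fell, 2 of 6 firing genes rose, 3 of 15 polymerase genes rose and 2 fell, and 1 of 4 nucleotide genes fell. With libraries scaled on totals alone these counts were 8 and 1 for licensing, 3 and 0 for firing, 7 and 0 for polymerases and 1 and 1 for nucleotides. None of the 4 G1/S regulators passed, and none of them had an unadjusted p under 0.05. The median log2 fold change of these groups was 0.48, 0.45, 0.16, -0.28 and 0.07 in the same order.

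**Figure D1:**
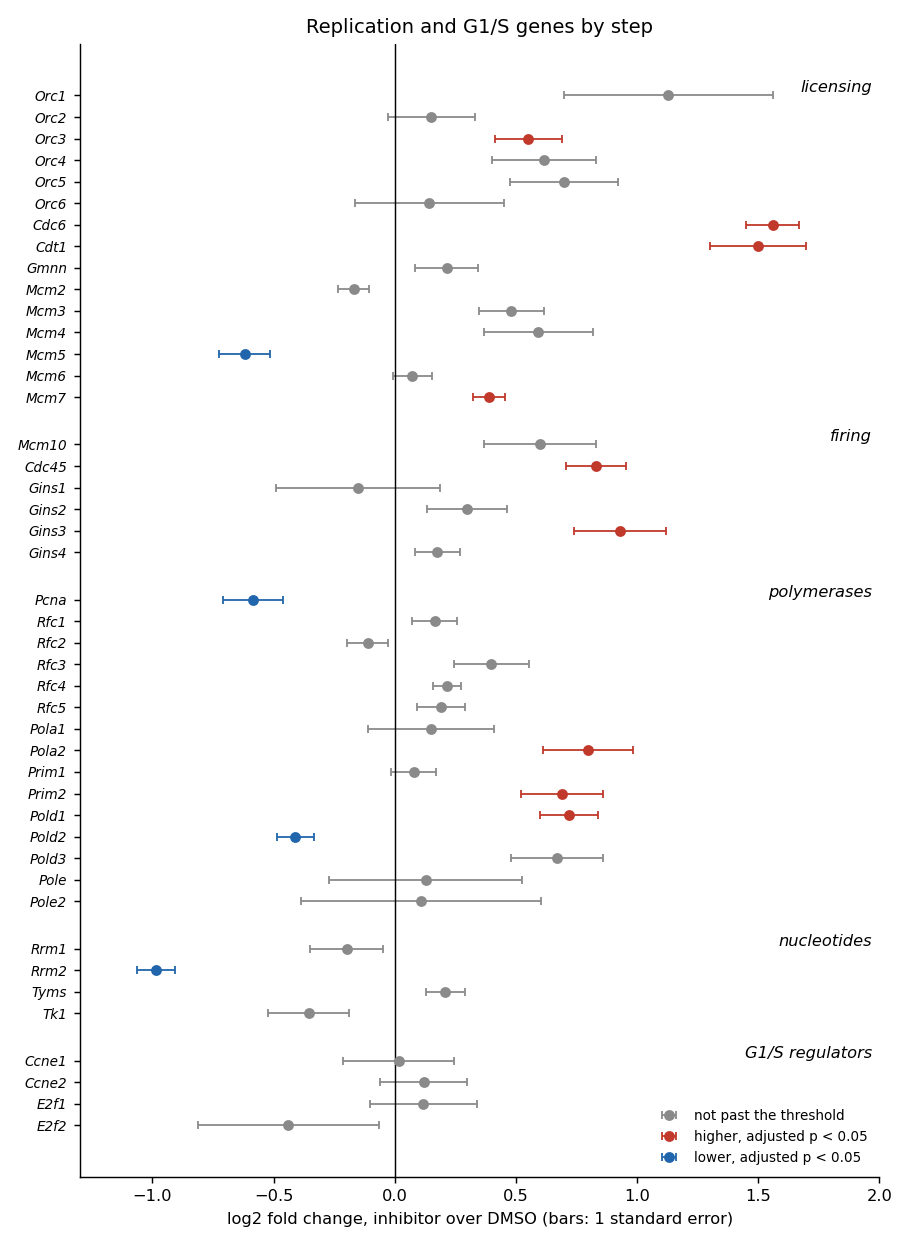
Log2 fold change (inhibitor over DMSO, horizontal axis) of each of the 44 replication and G1/S genes, grouped by role, with bars of 1 standard error from the edgeR fit. Cdc6 at 1.56 and Cdt1 at 1.50 lie farthest to the right and Rrm2 at -0.99 farthest to the left, and coloured points mark the 13 genes past an adjusted p of 0.05.

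Every inhibitor library was deeper than every DMSO library, with totals of 59070705 to 94747943 counts over the 6, and with counts thinned to the lowest total all 13 calls held. The 44 genes took 1.05% to 1.07% of all counts in the inhibitor libraries and 0.865% to 0.900% in the DMSO libraries. These are shares of raw totals. The main fit scaled the totals by 1.06 to 1.10 in the inhibitor libraries and by 0.92 to 0.94 in the DMSO libraries. On raw totals the median log2 fold change of all tested genes was itself 0.25. The lowest count of any of the 44 genes in a library was 140. Gcg, the glucagon gene that defines α cells, was at 2401 to 3024 FPKM with the inhibitor and 17086 to 19365 FPKM with DMSO. Of 26 markers of other pancreatic, stromal and immune cells, 4 reached 1 FPKM in some library and 12, among them Ins1, Sst, Ppy and Prss2, were listed at 0 in every library. Their summed level was 22.3 to 37.6 FPKM with the inhibitor and 14.6 to 21.4 with DMSO, with Cela1, an elastase gene, the highest. The part of these markers in the results was not tested. In these bulk libraries a smaller share of cells in a phase of the cell cycle and less RNA per cell in that phase cannot be told apart. The labels do not say whether the replicates were separate cultures, so the p-values measure the spread between these libraries. For cell culture experiments in general, the study reports that each replicate divided a shared batch at random among treatments. It adds that the samples of a replicate were handled together. The main fit did not use such a pairing.

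Licensing held the largest increases. Cdc6, the ATPase that joins ORC to recruit the helicase, lies on chromosome 11 (98907801 to 98923940, + strand, GRCm38) with 13 exon blocks. It was at 298, 318 and 275 CPM (the count scaled by the TMM-adjusted size of its library) in inhibitor libraries A, B and C and at 92.3, 98.7 and 112 CPM in DMSO libraries A, B and C. The lowest inhibitor library stood at more than the sum of any pair of DMSO libraries. The log2 fold change was 1.56 (SE 0.11, adjusted p = 0.00044), a 2.95-fold increase. Cdt1, its partner in loading the helicase, lies on chromosome 8 (122568015 to 122573554, + strand) with 10 exon blocks. It was at 229.7, 284 and 239 CPM with the inhibitor and 71.5, 115 and 80.2 CPM with DMSO. DMSO library B was the highest of its group and still lay far below the lowest inhibitor library. The log2 fold change was 1.50 (SE 0.20, adjusted p = 0.0045), a 2.82-fold increase.

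Geminin, the inhibitor of CDT1 encoded by Gmnn, did not pass the test, with a log2 fold change of 0.21 (SE 0.13, adjusted p = 0.35) and overlapping groups. The ratio of Cdt1 to Gmnn, taken per length from the FPKM values, was 0.704, 1.10 and 0.691 in the inhibitor libraries and 0.280, 0.404 and 0.305 in the DMSO libraries. It was therefore higher in every inhibitor library. The ratio was chosen after the values were seen and was given no test.

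All 6 ORC genes had a fold change above 0, and 1 passed. Orc3, a core subunit of the complex, was at 91.9, 96.9 and 74.4 CPM with the inhibitor and 60.5, 57.4 and 61.8 CPM with DMSO, without overlap. Its log2 fold change was 0.55 (SE 0.14, adjusted p = 0.042). The call was lost when inhibitor library A or B or any DMSO library was left out, with an adjusted p between 0.11 and 0.13. Orc1, the subunit whose level cycles with the cell cycle, was the lowest of the 44 genes at 2.08 ± 0.58 FPKM with the inhibitor and 0.956 ± 0.286 FPKM with DMSO (SD, n = 3). Its log2 fold change of 1.13 had an SE of 0.43 and did not pass (adjusted p = 0.14). Orc4 and Orc5 had log2 fold changes of 0.62 and 0.70 with adjusted p of 0.11 and 0.087, also without overlap. Orc2 and Orc6 lay at 0.15 and 0.14 with overlapping groups. Orc2 shares 24.0% of its exon bases with Nif3l1. The summed FPKM of the 6 subunits was 106 ± 14.5 with the inhibitor and 76.9 ± 9.22 with DMSO.

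The 6 subunits of the MCM2-7 ring are needed in equal number, and their transcripts moved apart. Mcm7 rose, being at 578, 549 and 526 CPM with the inhibitor and 424, 424 and 415 CPM with DMSO. The DMSO libraries lay close together, and the log2 fold change was 0.39 (SE 0.07, adjusted p = 0.010). Of its exon bases, 13.0% are shared with Ap4m1 and Cops6. Mcm7 also shares 2157 bases at 97.7% identity with the pseudogene Gm5487, which held 5038 counts beside 219671 for Mcm7. Mcm5 fell, from 549.7, 573 and 655 CPM with DMSO to 434, 362 and 362 CPM with the inhibitor, again without overlap. Its log2 fold change was -0.62 (SE 0.11, adjusted p = 0.012). With the column letters as a replicate block in the edgeR fit, the adjusted p was 0.051. Mcm2, the licensing gene of highest mean FPKM, was at 693, 678 and 664 CPM with the inhibitor and 714, 798 and 775 CPM with DMSO. These groups did not overlap, but the log2 fold change of -0.17 (SE 0.06) missed the threshold with an adjusted p of 0.14, and scaling on library totals alone turned its sign (0.04). Mcm3 and Mcm4 had log2 fold changes of 0.48 and 0.59, without overlap, and adjusted p of 0.059 and 0.14. Mcm6 lay at 0.07 (adjusted p = 0.62). Added over the ring, the level was 732 ± 37.8 FPKM with the inhibitor and 733 ± 24.9 FPKM with DMSO, so the sum differed by less than the spread between libraries. Within it, the ratio of Mcm5 to Mcm2 was 0.554 ± 0.049 with the inhibitor and 0.759 ± 0.062 with DMSO.

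**Figure D2:**
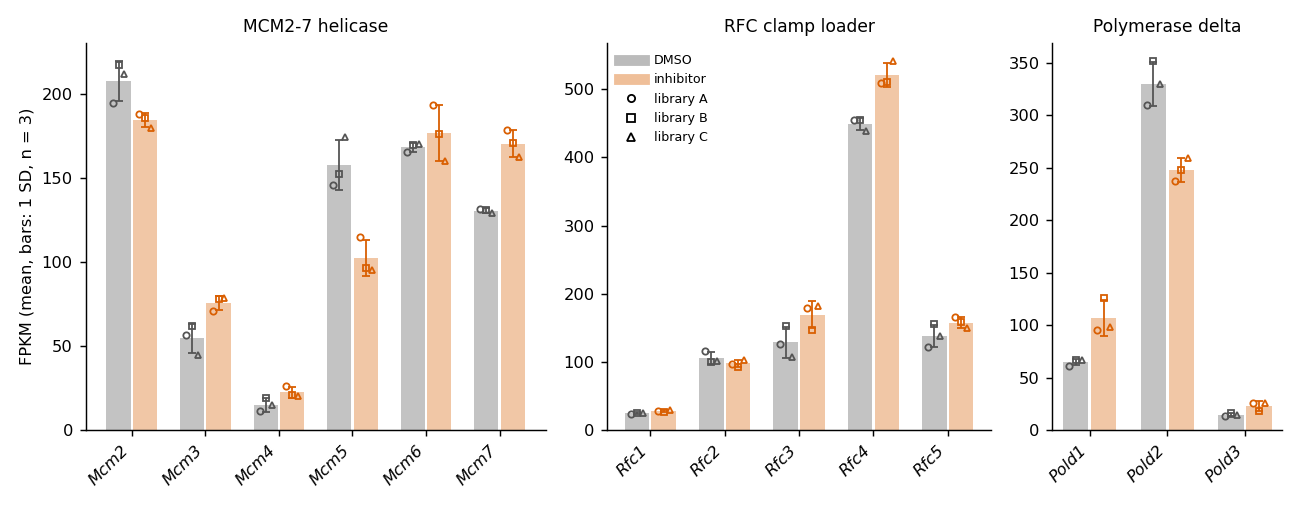
Level in FPKM (vertical axes from 0, each panel with its own scale) of the subunits of the MCM2-7 helicase, the RFC clamp loader and polymerase δ in DMSO (grey) and inhibitor (orange) libraries. Bars are means of 3 libraries with 1 SD, and symbols are libraries A, B and C. Mcm5 and Pold2 are lower and Mcm7 and Pold1 higher with the inhibitor within the same complexes, while none of the RFC subunits passed the threshold.

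Among the firing genes, Cdc45 and Gins3 rose. Cdc45, the helicase cofactor, lies on chromosome 16 (18780447 to 18811987, - strand) with 20 exon blocks. It was at 209, 199 and 162 CPM with the inhibitor and 103, 114 and 104 CPM with DMSO. Every inhibitor library lay above every DMSO library, and the log2 fold change was 0.83 (SE 0.12, adjusted p = 0.0070). Gins3, a GINS subunit, was at 115, 132 and 90.1 CPM with the inhibitor and 65.2, 48.5 and 63.1 CPM with DMSO. Its log2 fold change was 0.93 (SE 0.19, adjusted p = 0.021), and the call was lost without inhibitor library A or B or any DMSO library, at adjusted p between 0.054 and 0.065.

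The other GINS subunits did not follow Gins3 past the threshold. Gins4, the firing gene of highest mean FPKM, was at 186, 188 and 178 CPM with the inhibitor and 168, 172 and 149 CPM with DMSO. The groups did not overlap, and its log2 fold change was 0.18 (SE 0.09, adjusted p = 0.28). Gins1 lay at -0.15 (SE 0.34) and Gins2 at 0.30 (SE 0.17), both with overlapping groups. For Gins2, 70.7% of the exon bases are shared with Gse1, and the counting did not use strand, so its value is uncertain. Mcm10, which links the helicase to polymerase α, had a log2 fold change of 0.60 (SE 0.23, adjusted p = 0.14).

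At the fork, 3 polymerase genes rose while the clamp gene and a polymerase δ subunit fell. Pold1, the catalytic subunit of polymerase δ, lies on chromosome 7 (44532746 to 44548849, - strand) with 27 exon blocks. It was at 362, 472 and 372 CPM with the inhibitor and between 230.1 and 252 CPM in the 3 DMSO libraries. Inhibitor library B was the highest, and the groups were well apart with a log2 fold change of 0.72 (SE 0.12, adjusted p = 0.010). Its accessory subunit Pold2 went the other way, at 427, 441 and 467 CPM with the inhibitor and 555, 631 and 589 CPM with DMSO. The log2 fold change was -0.41 (SE 0.08, adjusted p = 0.015), and without DMSO library B or C the adjusted p was 0.054 and 0.055. With libraries scaled on totals alone it did not pass (-0.20, adjusted p = 0.14). Pold3, the third polymerase δ subunit among the 44, had a log2 fold change of 0.67 (SE 0.19, adjusted p = 0.063), without overlap. The ratio of Pold1 to Pold2 by FPKM was 0.404, 0.510 and 0.380 in the inhibitor libraries and 0.198, 0.189 and 0.204 in the DMSO libraries. Pold2 thus remained the more abundant transcript in all 6 libraries.

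Of the polymerase α-primase complex, both accessory subunits rose. Pola2, the B subunit of polymerase α, was at 31.1, 32.9 and 26.1 CPM with the inhibitor and 16.2, 17.8 and 17.9 CPM with DMSO. It was among the rarer transcripts of the 44, and its log2 fold change was 0.80 (SE 0.19, adjusted p = 0.034). Prim2, the large primase subunit, was at 134, 108 and 136 CPM with the inhibitor and 74.1, 94.4 and 66.0 CPM with DMSO. The groups did not overlap, and the log2 fold change was 0.69 (SE 0.17, adjusted p = 0.040). Both calls were lost without some libraries. Without inhibitor library A or B or any DMSO library the adjusted p of Pola2 was 0.090 to 0.11, and without any inhibitor library or DMSO library A or C that of Prim2 was 0.050 to 0.13. The catalytic subunits Pola1 and Prim1 had log2 fold changes of 0.15 (SE 0.26) and 0.08 (SE 0.09) with overlapping groups. Pole and Pole2 of polymerase ε were low, at 3.10 and 2.24 FPKM over the 6 libraries, and had log2 fold changes of 0.13 (SE 0.40) and 0.11 (SE 0.50). Pole2 shares 14.4% of its exon bases with Gm49384.

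Pcna, the sliding clamp, fell. It was at 161, 193 and 213 CPM with the inhibitor and 258, 294 and 298 CPM with DMSO, so the groups did not overlap. The log2 fold change was -0.59 (SE 0.13, adjusted p = 0.025). The call was lost without inhibitor library A or B or any DMSO library, at adjusted p between 0.050 and 0.087, and when libraries were scaled on totals alone (-0.38, adjusted p = 0.10). It was also lost when offsets for gene length were fitted. Pcna shares 781 bases at 99.2% identity with the pseudogene Pcna-ps2, which held 5742 counts over the 6 libraries beside 100886 for Pcna, so reads could be split between them. None of the 5 genes of the RFC clamp loader passed. Rfc4, the highest of all 44 genes by FPKM, was at 729, 724 and 775 CPM with the inhibitor and 648, 648 and 623 CPM with DMSO. These groups did not overlap, and the log2 fold change of 0.22 (SE 0.06) had an adjusted p of 0.053. Of the exon bases of Rfc4, 13.4% are shared with Eif4a2, and the counting did not use strand. The other RFC genes lay between -0.11 for Rfc2 and 0.40 for Rfc3. Rfc2 shares 19.1% of its exon bases with Lat2, and Rfc5 15.4% with Wsb2.

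Of the enzymes that supply deoxynucleotides, only Rrm2 passed, and downward. It lies on chromosome 12 (24708241 to 24714146, + strand) with 10 exon blocks and was the gene of highest mean FPKM in its group. It was at 494, 461 and 484 CPM with the inhibitor and 966, 859.7 and 1022 CPM with DMSO. The inhibitor libraries lay close together far below the DMSO libraries, and the log2 fold change was -0.99 (SE 0.08, adjusted p = 0.00075), a 1.98-fold decrease. Rrm1, the large subunit with which it forms the enzyme, had a log2 fold change of -0.20 (SE 0.15, adjusted p = 0.46). The ratio of Rrm2 to Rrm1 by FPKM was 4.38 ± 0.54 with the inhibitor and 7.65 ± 1.80 with DMSO, and the groups did not overlap. Tyms, thymidylate synthase, lay at 0.21 (SE 0.08, adjusted p = 0.15), and Tk1, the cytosolic thymidine kinase, at -0.36 (SE 0.17, adjusted p = 0.22). The 4 transcripts together were at 478 ± 22.0 FPKM with the inhibitor and 694 ± 56.0 FPKM with DMSO, and Rrm2 made up the larger part of the difference.

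The G1/S regulators showed no change past the threshold. E2f1, an activating transcription factor and the highest of the 4 by mean FPKM, was at 202, 162 and 135 CPM with the inhibitor and 113, 161 and 186 CPM with DMSO. The groups overlapped over most of their range, and the log2 fold change was 0.12 (SE 0.22, adjusted p = 0.79). E2f2, the other activator, was at 2.92 ± 1.52 FPKM with the inhibitor and 3.96 ± 0.25 FPKM with DMSO (log2 fold change -0.44, SE 0.37). Cyclin E genes Ccne1 and Ccne2 had log2 fold changes of 0.02 (SE 0.23) and 0.12 (SE 0.18). With standard errors of this size, changes such as that of Mcm7 could not have been resolved in these 4 genes.

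**Figure D3:**
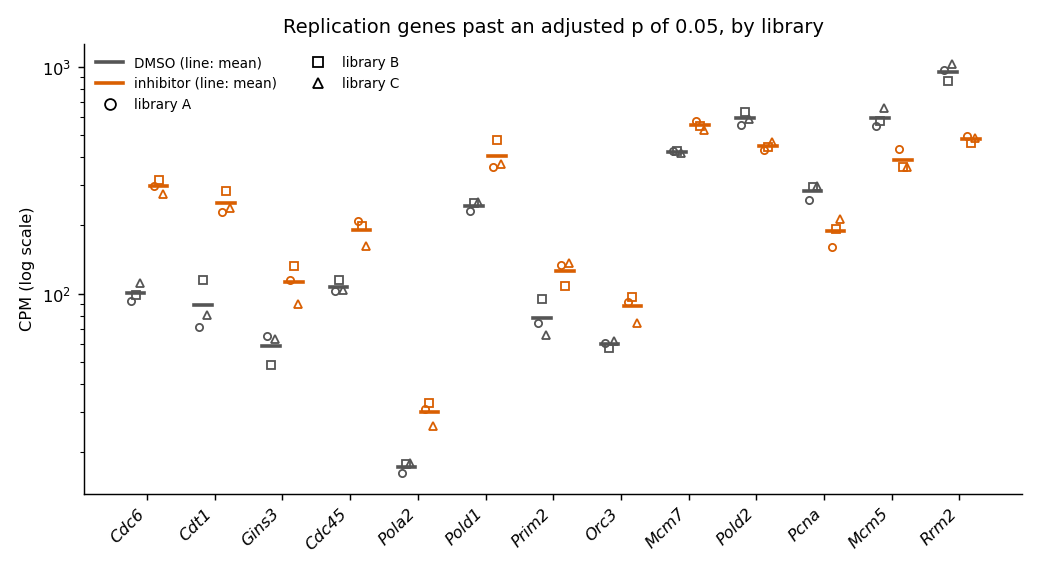
CPM on a log scale of the 13 replication genes past an adjusted p of 0.05 in each DMSO (grey) and inhibitor (orange) library, with a line at the mean of 3 libraries and symbols for libraries A, B and C. Genes run from the largest increase, Cdc6, to the largest decrease, Rrm2. The groups do not overlap for any of them, a separation that 18.2% (higher) and 18.5% (lower) of all tested genes also had.

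Levels of the 44 genes spanned a wide range, from 1.52 FPKM for Orc1 to 485 FPKM for Rfc4 over the 6 libraries. Added over all 44 genes, the level was 3685 ± 38.2 FPKM with the inhibitor and 3607 ± 92.6 FPKM with DMSO, and the groups overlapped. By group, the sums of the licensing genes (1129 ± 43.2 against 979 ± 41.1 FPKM) and of the firing genes (336 ± 43.3 against 265 ± 25.3 FPKM) were higher in every inhibitor library. That of the nucleotide enzymes was lower in every one, and those of the polymerase genes (1654 ± 54.0 against 1585 ± 65.6 FPKM) overlapped. These sums and ratios were chosen after the values were seen, so they are given without a test. Under every alternative setting and with each library left out, apart from a test against an absolute log2 fold change of 1, the calls of Cdc6, Cdt1, Cdc45, Pold1 and Rrm2 held. In that stricter test only Cdc6 passed.

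E2F sites are a shared feature of this machinery, so the promoters were searched for the E2F consensus, which is TTT, then 2 letters that are each C or G, then CGC, on either strand and with overlapping matches counted. RefSeq windows of 250 bases before to 50 bases after a transcription start (GRCm38.p6) were matched for 35 of the 44 genes. The consensus was present in 15 of the 35 (42.9%), beside 704 of 27025 genes (2.6%) in the whole table. It was present in 6 of the 8 matched genes that rose, in 1 of the 4 that fell and in 8 of the 23 that did not pass. By role it was found in 8 of 13 licensing genes, 1 of 3 firing genes, 5 of 12 polymerase genes, none of the 4 nucleotide genes and 1 of 3 G1/S regulators. These shares were not tested. Role and call overlap, since Cdc6, Cdt1, Mcm7 and Orc3, which rose and hold the consensus, are all licensing genes. The number of genes called higher also ran from 1 to 19 over the settings. Gins1, Gins2, Gins4, Prim2, Ccne2, Gmnn, Rfc2, Mcm4 and Pole had no matched window. The stretches that follow hold matches upstream of the RefSeq start in genes that rose (Cdc6, Gins3, Mcm7, Orc3), in Mcm5, which fell, and in Mcm6, which did not pass and has a further upstream match at -47 outside the stretch. They are shown because the consensus occurs in all 3 kinds of gene. The matched letters are the same in the stretches of genes that rose, with Orc3 read on the other strand. Those of Mcm5 and Mcm6 differ from these and are the same run read on opposite strands. Mcm6 is the only gene shown of those that did not pass. Orc1, Pola1 and Rfc3, which did not pass either, also hold upstream matches, from -27, -138 and -10, that are not shown. The stretches therefore cannot tell whether the matched letters differ between genes that rose and other genes. GENCODE vM21 starts some of these genes farther upstream than RefSeq. By it the Cdc6 stretch lies in an intron of the gene, those of Gins3 and Mcm7 touch an exon of the gene (for Mcm7 also of Ap4m1), and that of Orc3 touches an exon of Rars2 on the opposite strand. Each is written 5′ to 3′ on the strand of the gene, with the consensus in capitals.
Cdc6 (chr11:98907987-98908046, + strand): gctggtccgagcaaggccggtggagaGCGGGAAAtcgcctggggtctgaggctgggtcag
Gins3 (chr8:95633507-95633536, + strand): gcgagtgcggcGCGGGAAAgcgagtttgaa
Mcm7 (chr5:138172030-138172059, - strand): aatttcgaaccGCGGGAAAcagggtgtcca
Orc3 (chr4:34614965-34614994, - strand): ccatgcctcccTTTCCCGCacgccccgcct
Mcm5 (chr8:75109330-75109393, + strand): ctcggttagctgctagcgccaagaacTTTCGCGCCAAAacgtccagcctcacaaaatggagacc
Mcm6 (chr1:128359778-128359841, - strand): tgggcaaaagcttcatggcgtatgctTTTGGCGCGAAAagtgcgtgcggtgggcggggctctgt

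In Mcm5 and Mcm6, matches on both strands overlap, so the capitals run over 2 matches each. Mcm5 with its log2 fold change of -0.62 and Mcm6 with 0.07 therefore carry the same kind of paired match. Cdt1 and Pold1, which rose, hold the consensus after the start instead, from the base at position 33 and 40. A match is a run of letters and not a measured site of binding.

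Beyond the 44 genes, 95 others of the pathway were grouped by function, of which 93 could be tested, all but Ccnd2 and Cdk6. Of these, 13 rose and 8 fell, 14.0% and 8.60% of those tested, beside the 6.98% and 7.8% over all genes. With libraries scaled on totals alone, 21 were called higher and 4 lower, and Dtymk, Guk1, Cdkn2d and Tfdp1 no longer passed. Of the 21 calls, those of Dut, Tk2, Cdkn1a, Cdkn2c, Tfdp2 and Hells held with any library left out. The other 15 were lost without at least 1 library, with 8, 6 and 8 of the 21 held without DMSO libraries A, B and C and 11, 13 and 12 without inhibitor libraries A, B and C. Among the kinases and scaffolds that fire origins, Cdc7 and Timeless rose. Cdc7, the kinase that phosphorylates the MCM2-7 ring, was at 67.8, 69.8 and 50.4 CPM with the inhibitor and 17.7, 25.7 and 29.9 CPM with DMSO, a log2 fold change of 1.36 (SE 0.25, adjusted p = 0.014). Its activator Dbf4 lay at 0.43 (adjusted p = 0.12). Timeless, a fork protection gene, had a log2 fold change of 0.76 (SE 0.17, adjusted p = 0.031). The other 9 genes of this list did not pass, and 10 of its 11 fold changes lay above 0.

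Of 19 other fork subunits, 1 rose and 1 fell, near the background. Atad5, which unloads PCNA, had a log2 fold change of 1.32 (SE 0.32, adjusted p = 0.038), and Rnaseh2c of the RNase H2 complex -0.96 (SE 0.17, adjusted p = 0.014). The single-strand binding genes Rpa1, Rpa2 and Rpa3 and the ligase Lig1 did not pass. Of 8 replication-coupled chromatin genes, Hells, a chromatin remodeler, rose by 1.08 on the log2 scale (SE 0.16, adjusted p = 0.0076).

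The wider set of nucleotide enzymes contained 4 genes that fell and 1 that rose among 15, and its median log2 fold change was -0.33. The share that fell was 26.7%, beside 7.8% of all tested genes. Among tested genes between the expression quartiles of the replication genes, the share called lower was 19.3%. Scaled on totals alone, 2 of the 15 were called lower and 2 higher, and Dtymk and Guk1 no longer passed. Of the 4 lower calls, only that of Dut held with any library left out. Dut, the dUTPase, was at 473, 389 and 416 CPM with the inhibitor and 652, 705 and 693 CPM with DMSO. The groups lay well apart, with a log2 fold change of -0.68 (SE 0.09, adjusted p = 0.0042). Cad, which starts pyrimidine synthesis, lay at -1.18 (SE 0.24, adjusted p = 0.020), and Dtymk, thymidylate kinase, at -0.50 (SE 0.10, adjusted p = 0.020). Guk1, guanylate kinase, had the largest p of those that fell (log2 fold change -0.45, SE 0.10, adjusted p = 0.033). Tk2, the mitochondrial thymidine kinase, rose, at 50.7, 52.6 and 58.1 CPM against 20.4, 27.2 and 26.8 CPM (log2 fold change 1.12, SE 0.18, adjusted p = 0.0085). Rrm2b, the alternative small subunit of ribonucleotide reductase, lay at -0.18 (SE 0.65) and was at 1.51 to 10.1 CPM in all libraries.

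The CDK inhibitors moved in both directions. Cdkn1a, which encodes p21, a brake on CDK2, was at 184, 229.7 and 201 CPM with the inhibitor and 66.4, 54.3 and 51.8 CPM with DMSO. The log2 fold change was 1.83 (SE 0.14, adjusted p = 0.00068), a 3.56-fold increase. Cdkn2c, which encodes p18 and acts on CDK4 and CDK6, was at 146, 175 and 185 CPM with the inhibitor and 460.0, 387 and 396 CPM with DMSO. It fell by 1.29 on the log2 scale (SE 0.12, adjusted p = 0.0012), and its relative Cdkn2d, which encodes p19, fell by 0.70 (SE 0.14, adjusted p = 0.021). Cdkn1b at -0.40, Cdkn1c at -0.98, Cdkn2a at -0.32 and Cdkn2b at -1.07 did not pass, with adjusted p from 0.32 to 0.88. Of the cyclins, kinases and their activators, Cdc25a, the phosphatase that activates CDK2, rose by 1.01 (SE 0.21, adjusted p = 0.021). Ccna2, cyclin A, lay at -0.77 (adjusted p = 0.056) and Cdk2 at 0.57 (adjusted p = 0.061).

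Among other genes of the E2F, RB and DREAM network, the E2F dimerization partners parted. Tfdp2 rose from 28.4, 39.7 and 31.5 CPM with DMSO to 75.1, 88.8 and 69.1 CPM with the inhibitor (log2 fold change 1.23, SE 0.18, adjusted p = 0.0073). Tfdp1 fell from 183, 181 and 177 CPM to 139, 113 and 107 CPM (log2 fold change -0.60, SE 0.12, adjusted p = 0.021). Lin37, a DREAM subunit, rose by 0.64 (SE 0.14, adjusted p = 0.029). The pocket protein genes Rb1, Rbl1 and Rbl2 were low, Rb1 at 0.954 to 5.43 CPM, and had log2 fold changes of 0.16, 0.80 and 0.04 with adjusted p of 0.92, 0.34 and 0.97.

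The replication checkpoint, which senses stalled forks, had 4 of 9 genes higher (44.4%, beside 6.98% of all tested genes) and none lower. Rad1, the one gene below 0, had an unadjusted p of 0.29. The median log2 fold change of these genes, 0.99, was the highest of the lists. Each of the 4 calls was lost when some library was left out, and that of Atr whichever library was left out. Atr, its apical kinase, was low in all libraries, at 3.46, 4.50 and 3.83 CPM with the inhibitor and 0.707, 0.877 and 1.09 CPM with DMSO, and its log2 fold change was 2.14 (SE 0.50, adjusted p = 0.033). Its partner Atrip was at 58.4, 52.8 and 79.4 CPM against 34.3, 32.7 and 28.8 CPM (log2 fold change 0.99, SE 0.20, adjusted p = 0.020). The clamp loader gene Rad17 and the clamp gene Rad9a rose by 0.78 and 1.06 (adjusted p = 0.037 and 0.044). Chek1, the effector kinase, lay at 1.17 and did not pass (adjusted p = 0.21).

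**Figure D4:**
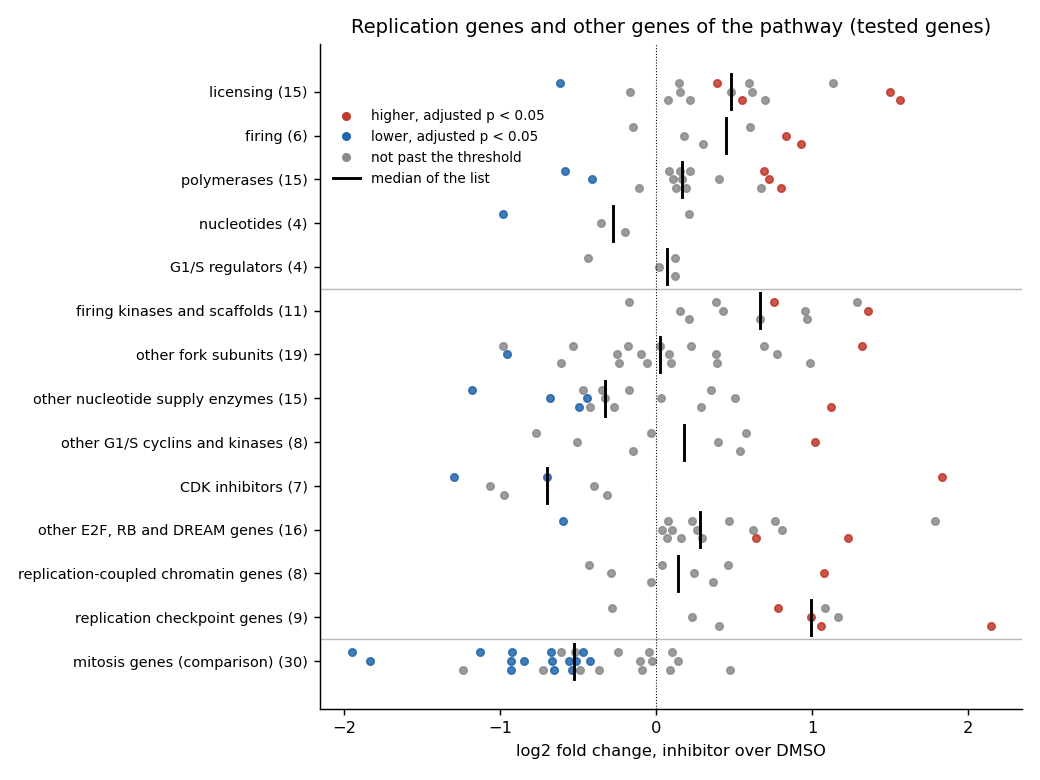
Log2 fold change (inhibitor over DMSO, horizontal axis) of every tested gene in the 5 groups of replication genes, 8 lists of other pathway genes and a list of mitosis genes, with the number tested in parentheses and a black line at each median. Points of the replication groups lie on both sides of 0, while the mitosis list has a median of -0.53 with 15 genes called lower and 0 called higher.

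Mitosis genes act later in the same cycle and served for comparison. Of 30, 15 fell and none rose, at a median log2 fold change of -0.53. Pttg1, the securin gene, was at 189, 195 and 174 CPM with the inhibitor and 661, 675 and 654 CPM with DMSO, a log2 fold change of -1.83 (SE 0.07, adjusted p = 0.00010). Plk1, a mitotic kinase, lay at -1.95 (SE 0.14, adjusted p = 0.00044), and Cenpa and Birc5, of the centromere and the chromosomal passenger complex, both lay at -0.93. The 4 genes of this list with a fold change above 0 had unadjusted p from 0.28 to 0.75. Of the 15 calls, 9 held with any library left out, those of Pttg1, Plk1, Cenpa and Birc5 among them, and 10 to 13 held in each case. No test of the difference between the replication and the mitosis genes was made, and both are read from the same libraries. By counts, 9 of 44 against 0 of 30 rose and 4 of 44 against 15 of 30 fell, where the tested genes as a whole had 6.98% and 7.8%. Tested genes between the expression quartiles of the replication genes had 13.2% and 19.3%. With libraries scaled on totals alone, 19 of 44 against 0 of 30 rose and 2 of 44 against 9 of 30 fell.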

How the data were processed

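RNA of αTC1 cells had been made into libraries by the Smart-seq2 protocol, which does not keep the strand, and read from both ends. The authors aligned the reads with STAR to GRCm38, counted them per annotated transcript without regard to strand and added transcripts up per gene, and the deposited counts are whole numbers without normalization. The authors also deposited FPKM values, whose computation is not given in the sources used here. The submitters' processing notes list STAR 2.7.9a, Picard 2.19.2, DESeq2 1.34.0 and R 4.1.3.

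Counts of all genes were tested in R 4.3.3 with edgeR 4.0.16 (filterByExpr at 10 counts per library and 15 in total, TMM, quasi-likelihood test on treatment, Benjamini-Hochberg adjustment over 15082 genes), and the replication genes were read from this fit. A standard error is the size of the log2 fold change over the root of its F statistic. FPKM served to compare levels between genes. With totals of 59070705 to 94747943 counts, counting error is small for these genes. An exact permutation test of 3 against 3 libraries cannot go below p = 0.1 and was not used.

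The genes and lists were chosen with earlier results of these data known, and the lists were written by function. Values in every library are given for replication genes past the threshold and for the gene of highest mean FPKM of each role. Of the other lists, up to 4 genes of smallest p past the threshold are named. The CDK inhibitors and the pocket protein genes are named whether or not they passed. Only some of these genes have values by library. Others are named with their fold change only, and for some a value by library was added after the values were seen.

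The alternatives comprised a DESeq2 1.42.0 fit, normalization by RLE or by library totals alone, 2 other filters on low counts, thinned counts, gene length offsets, limma 3.58.1 on log2-transformed FPKM (pseudocounts 1 and 0.1), a replicate block, glmTreat and each library left out in turn. The fits were tested on simulated data. Exon overlaps came from GENCODE vM21 and near-identical copies from blastn 2.17.0 (at least 400 bases at 95% identity).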

Additional observations from a re-analysis of the deposited data

How the results depend on the processing

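The 13 calls kept their direction under all 13 alternatives and with each of the 6 libraries left out. The count of replication genes called lower was 4, and became 5 with gene length offsets, where Pcna was lost and Mcm2 and Rfc2 were gained. It was 3 with the replicate block, 2 with library size only and 2 with the block and gene length offsets together. With glmTreat against an absolute log2 fold change of 1 it was 0. Without single libraries it was 2 to 4. The count called higher was 9, and became 16 with DESeq2, 19 with library size only, 5 with the replicate block, 4 with the block and length offsets and 1 with glmTreat, and 5 to 8 without single libraries. Library size only moved the median of all tested genes from 0.04 to 0.25 and that of the replication genes from 0.18 to 0.39, so the distance between them stayed at 0.14. With it, 6 genes passed the filter of the study in place of 2. That number was 1 with glmTreat and 2 to 3 without single libraries, and the median of the replication genes was 0.19 to 0.25 without single libraries.

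Of the other pathway genes, 21 were called, 13 higher and 8 lower, against 21 higher and 4 lower with library size only. The total was 38 with DESeq2, 12 with the replicate block, 10 with block and length offsets, 1 with glmTreat and 7 to 14 without single libraries. The 15 mitosis genes called lower became 9 with library size only and 2 with glmTreat, and were 10 to 14 without single libraries. No mitosis gene was called higher by edgeR, DESeq2 or limma.

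The columns carry the letters A, B and C, and nothing ties these to the numbers of the replicates in the labels. Deviations from the group means correlated by 0.015, 0.003 and 0.025 between libraries of the same letter. Between libraries of different letters they correlated by -0.027 to 0.012. The main fit did not take the letters as pairs, and whether they mark the replicates of the study was not settled. With the letter as a replicate block, 8 of the 13 calls were kept, and Orc3, Mcm5, Gins3, Pola2 and Prim2 were not. With the block and gene length offsets together 6 were kept, and Orc3, Mcm7, Gins3, Pcna, Pola2, Prim2 and Pold2 were not.

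Some genes that did not pass changed sign. With library size only, the log2 fold change was 0.037 for Mcm2, 0.046 for Gins1, 0.095 for Rfc2 and 0.004 for Rrm1. With gene length offsets it was -0.144 for Mcm6, 0.026 for Gins1, -0.082 for Rfc1, -0.12 for Pola1, -0.173 for Pole, -0.004 for Ccne2 and -0.008 for E2f1. With the block and length offsets it was -0.008 for Orc2, -0.147 for Mcm6, -0.082 for Rfc1, -0.075 for Pola1, -0.188 for Pole and -0.022 for Ccne2. Ccne1 lay at -0.007 with the block, at -0.007 with limma and a pseudocount of 1, with or without the minimum, and at -0.008 with a pseudocount of 0.1. Without single libraries the ranges were -0.008 to 0.274 for Orc2, -0.052 to 0.468 for Orc6, -0.56 to 0.068 for Gins1, -0.106 to 0.422 for Pole, -0.283 to 0.394 for Pole2, -0.211 to 0.139 for Ccne1, -0.007 to 0.274 for Ccne2 and -0.064 to 0.273 for E2f1. The cause of these shifts was not tested.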
